A study of Homo sapiens with 10 samples.

Results

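The response to VXN in t-hESC was read from 4 RNA libraries of a whole series of 10, taken by their titles as the 2 VXN and the 2 DMSO libraries of that line. The name t-hESC stands in the labels for transformed pluripotent stem cells, and the cells compared were treated for 48 hours with 10 µM of VXN or with DMSO, the solvent. VXN is a code name, left unexpanded in the labels. Further libraries used for comparison came from t-hESC under 1 µM of BIX and from HT29, an established colorectal cancer cell line, under DMSO or 10 µM of VXN, with 2 libraries in each group. BIX commonly names an inhibitor of G9a and GLP, enzymes that methylate lysine 9 of histone H3, and the series title speaks of modulating dimethylation of that lysine with drugs. No genetic alteration is named for any group, each line is a single line, and the labels do not say how the stem cells were transformed. The compounds rest on the sample titles, since the treatment label gives DMSO and 48 hours throughout.

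The labelled cell type was set against markers of 8 cell types. The summed level of 10 markers of pluripotent stem cells was 5770 and 5677 CPM (counts scaled by library size) in the DMSO libraries and 5127 and 5103 CPM under VXN, against 14.8 and 13.4 CPM in HT29 under DMSO. All of these markers but ZFP42 stood above 4 CPM in each of the 4 libraries, and ZFP42 was at or below 0.419 CPM. Colon markers summed to 126 and 127 CPM under DMSO and to 118 and 114 CPM under VXN, mostly from EPCAM, which pluripotent cells also express. Of 6 trophoblast markers 4 had no count in any of the 4 libraries, mesoderm markers summed to at most 6.21 CPM, endoderm markers to at most 4.12 CPM and haematopoietic markers to at most 1.37 CPM. Neural markers summed to 392 to 413 CPM, mostly from NES. The sum of 7 fibroblast markers was higher under VXN, at 1456 and 1463 CPM against 1228 and 1234 CPM. The fibroblast markers DCN and LUM were at 0 or 1 count in each of the 4 t-hESC libraries. The rise in that sum came from THY1, which pluripotent cells also carry on their surface. In RNA from bulk cells, fewer cells of a type and less RNA per cell cannot be told apart.

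G9a and GLP place the dimethyl mark on lysine 9 of histone H3, a mark of silent chromatin, and inhibitors of them are used to release silenced genes. Pluripotent stem cells divide fast with a short G1 phase, rely on glycolysis, depend on FGF signalling through ERK, and hold their identity through a network around POU5F1, SOX2 and NANOG. Several pathways described here are switched by well known sensors: SREBP2 raises the enzymes of cholesterol synthesis when sterols are low and LXR raises sterol export when they are high, serum response factor and ETS factors raise immediate early genes, and MTF1 raises metallothioneins when zinc is high.

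Total gene counts were 18095537 and 21128261 in the DMSO libraries and 16295315 and 17232437 in the VXN libraries, so that 3 counts, the level that a count of 0 allows, correspond to 0.142 to 0.184 CPM for counting error only. Both libraries of a condition are biological replicates per the series. The p-values rest on the spread between replicates in all 10 libraries of the fit, shared largely across genes (5 residual and 56.7 prior degrees of freedom). They do not measure variation beyond these libraries. Replicates were close: the fit gave a biological coefficient of variation of 0.0207, a common value for the whole series.

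The first question was how much of the transcriptome VXN changed in t-hESC. With edgeR's quasi-likelihood test, 6531 of 22495 genes tested had a Benjamini-Hochberg adjusted p under 0.05, which is 29.0% of genes, and such genes are said here to have risen or fallen, or to be called. The higher genes made up 14.5% (3254 genes) and the lower ones 14.6% (3277 genes). Most changes were small, with a median absolute log2 fold change of 0.30 among called genes, and 2690 of the called genes changed by less than 1.2-fold. At 2-fold or more the balance was different, with 345 genes higher and 119 lower, and at 1.5-fold or more it was 933 and 283. The median over all genes tested was 0.0036 on the log2 scale. With 2 libraries a group, 60.24% of all genes tested had VXN and DMSO libraries that did not overlap, as had 6512 of the called genes. The genes named as largest changes were also picked with this separation required. Statements below that groups did not overlap therefore describe the values and add no support to a call. DESeq2 called 3574 genes and a test against a change of 1.2-fold called 1411.

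**Figure D1:**
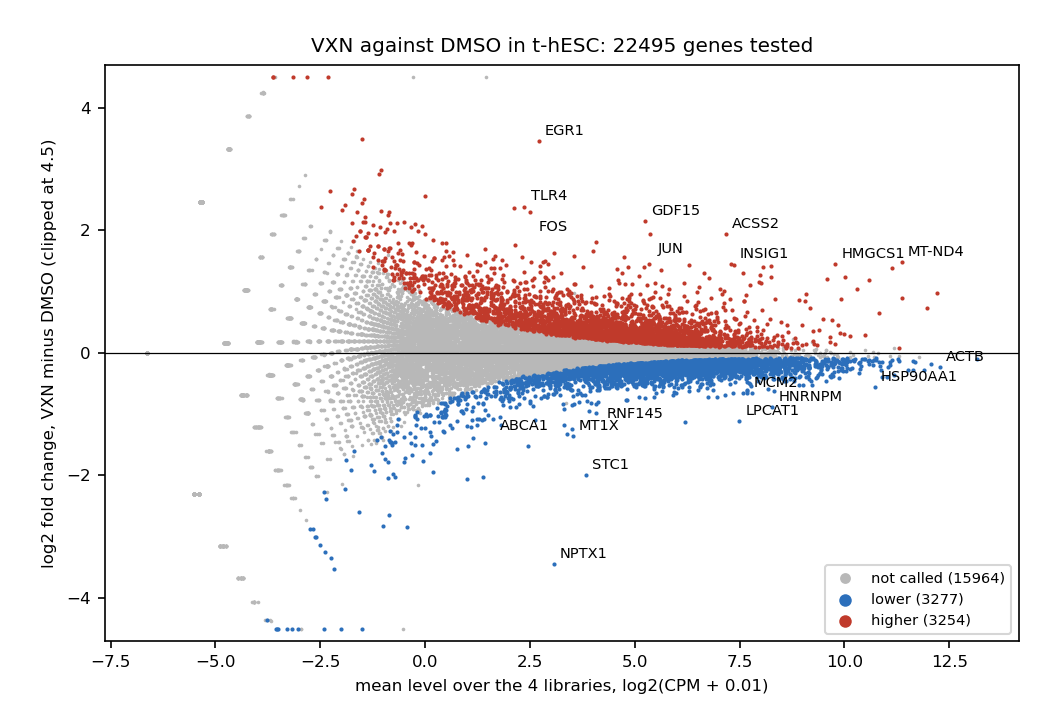
Log2 fold change of VXN over DMSO in t-hESC (vertical axis, clipped at 4.5) against the mean level as log2 of CPM plus 0.01 (horizontal axis), 1 point per gene tested, with genes called higher in red, lower in blue and others in grey. Called genes of high level lie mostly below 0, whereas 345 of the genes called at 2-fold or more lie above 0 and 119 below, with EGR1 at 3.46 and NPTX1 at -3.45 among the named genes.

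Direction differed with level. Among genes whose mean reached 256 CPM, 78.9% were called, 80 of them higher and 380 lower, with a median log2 fold change of -0.13. Among genes between 64 and 256 CPM, 60.1% were called, 543 higher and 1215 lower of 2925. Among genes between 4 and 16 CPM, 27.0% were called, 778 higher and 380 lower. Below 1 CPM the share called was 4.28%, so that the low-level genes were read with less precision. Long non-coding RNA genes were called higher in 422 and lower in 218 of 4675 cases, and protein-coding genes in 2715 and 3006 of 15640 cases. Chromosome 19 had 264 genes higher and 173 lower of 1243, or 35.2% called. Chromosome 17 had 212 higher and 185 lower of 1072, or 37.0% called. Chromosomes 22, 20 and 11 were close, at 34.9, 34.9 and 34.1%, and chromosome 13 had the smallest share, 26.5%. No difference between chromosomes was tested.

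Gene lists were read by their counts beside those shares of all genes. Genes of high level were more often called lower, and no list was set against genes of like level. Among lists of at least 10 tested members, those with the highest medians were the mRNAs of the mitochondrial genome (1.19), the enzymes of cholesterol synthesis (0.88), the immediate early transcription factors (0.68), the genes of mesendoderm and mesoderm (0.61, with 4 of 10 called), the regulators of sterol uptake (0.56) and the feedback genes of ERK signalling (0.43). The lowest were those of the G1/S and replication list (-0.34) and glycolysis (-0.28). The mesendoderm and mesoderm list had 19 members, of which 9 were below the count filter. That filter used all 10 libraries, so a member of any list can be tested while near 0 in t-hESC.

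**Figure D2:**
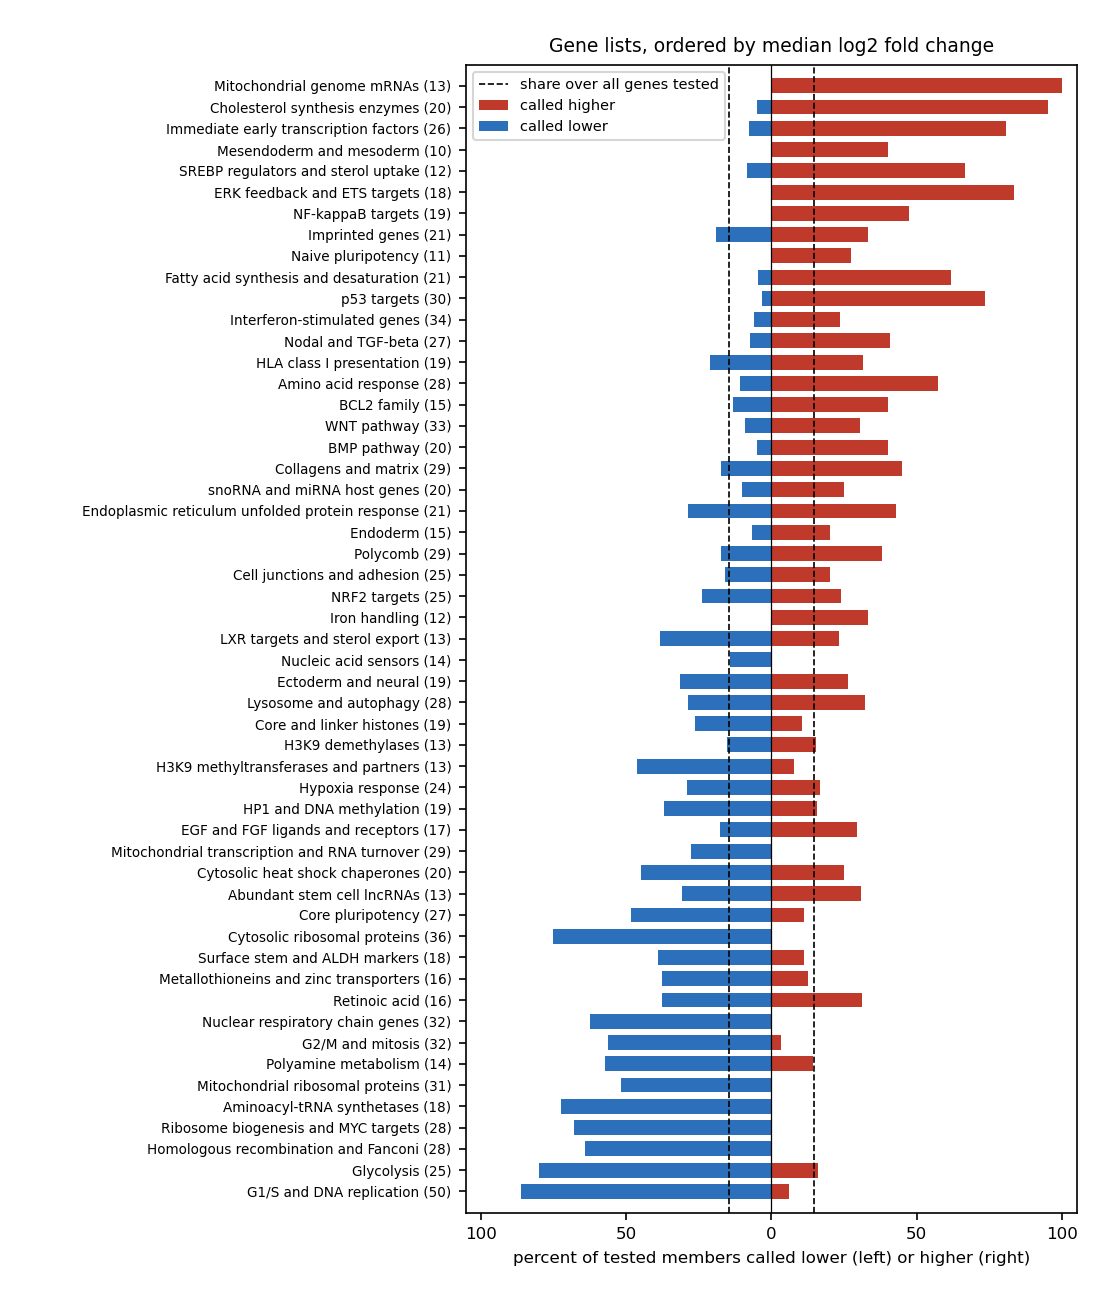
Share of each gene list's tested members that were called higher (right of 0) or lower (left of 0) under VXN in t-hESC, in percent, for lists of at least 10 tested members (their number in parentheses), ordered by median log2 fold change. Dashed lines are the shares over all genes tested, 14.5% higher and 14.6% lower. The mitochondrial mRNAs and cholesterol enzymes lie almost wholly to the right. The replication genes lie mostly to the left, with 43 of 50 lower and 3 higher, as do the glycolysis genes, with 20 of 25 lower and 4 higher.

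Genes of sterol synthesis and uptake rose under VXN. Of 20 enzymes of cholesterol synthesis 19 rose and 1 fell. HMGCS1, which makes HMG-CoA early in the pathway (chr5:43287470-43313412, GRCh38), was at 468 and 479 CPM under DMSO and at 1303 and 1272 CPM under VXN, a log2 fold change of 1.44 ± 0.03 (SE; edgeR adjusted p = 5.57e-47). Both VXN libraries stood far above both DMSO libraries. Squalene synthase, encoded by FDFT1, went from 670.4 and 685 CPM to 1242 and 1247 CPM, and DHCR7, which acts at the last step of the pathway, from 162 and 161 CPM to 349.6 and 359 CPM. In none of these did the groups overlap. Other enzymes of the list that rose were CYP51A1, IDI1, SC5D and SQLE, with log2 fold changes of 1.01, 0.96, 0.89 and 0.88. PMVK, phosphomevalonate kinase, was the member that fell, from 32.8 and 32.2 CPM to 28.7 and 28.4 CPM. PMVK had the largest edgeR adjusted p of the genes named here, 0.0305. PMVK was not called without VXN replicate 1 (edgeR adjusted p = 0.0818), VXN replicate 2 (edgeR adjusted p = 0.127), DMSO replicate 1 (edgeR adjusted p = 0.115) or DMSO replicate 2 (edgeR adjusted p = 0.0782).

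Of 12 regulators of the pathway and genes of sterol uptake 8 rose, 1 fell and 3 were not called. INSIG1 encodes the protein that holds SREBP in the endoplasmic reticulum when sterols are plentiful, and is itself a target of SREBP. It was at 91.2 and 85.7 CPM under DMSO and 239 and 240.1 CPM under VXN. STARD4, a sterol carrier, went from 61.3 and 57.1 CPM to 124 and 126 CPM, and NPC1, which exports cholesterol from the lysosome, from 35.9 and 36.3 CPM to 53.6 and 55.9 CPM. In none of these did a VXN library overlap with a DMSO library. SREBF1, which encodes the SREBP form of fatty acid synthesis, was the member that fell, from 94.7 and 88.2 CPM to 73.5 and 73.9 CPM. SREBF1 had the largest edgeR adjusted p of the genes named here, 2.79e-07.

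Of 13 targets of LXR and genes of sterol export 3 rose, 5 fell and 5 were not called. ABCA1, which loads cholesterol onto lipoproteins (chr9:104781006-104928155, GRCh38), went from 14.4 and 15.3 CPM to 5.202 and 6.603 CPM, a log2 fold change of -1.33 ± 0.12 (SE; edgeR adjusted p = 2.19e-14). Its relative ABCG1 went from 3.46 and 3.53 CPM to 1.08 and 2.14 CPM, and the ubiquitin ligase gene RNF145, which acts on the sterol sensor system, from 104 and 99.6 CPM to 46.04 and 46.4 CPM. The DMSO libraries were above the VXN libraries in all 3. NR1H3, the gene of LXR alpha itself, rose by 0.43 on the log2 scale and APOE, an apolipoprotein and LXR target, by 0.36. So the members of this list moved in both directions. APOE was not called without VXN replicate 1 (edgeR adjusted p = 0.0807) or VXN replicate 2 (edgeR adjusted p = 0.0804).

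Of 21 genes of fatty acid synthesis and desaturation 13 rose, 1 fell and 7 were not called, at a median of 0.26. ACSS2, which makes acetyl-CoA from acetate, went from 61.1 and 58.2 CPM to 229 and 228 CPM, a log2 fold change of 1.94 ± 0.042 (SE). SCD, the delta-9 desaturase, went from 1402 and 1406 CPM to 2166 and 2262 CPM, and FASN, fatty acid synthase, from 732 and 735 CPM to 850.4 and 894 CPM. LPIN1 rose by 0.97 on the log2 scale. ACACA, the enzyme of the committed step, fell from 181 and 192 CPM to 151 and 159 CPM. LPCAT1, a lysophospholipid acyltransferase outside this list, was at 249 and 245 CPM under DMSO and at 116 and 113 CPM under VXN. ACACA had the largest edgeR adjusted p of the genes named here, 3.7e-08.

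The sterol response element, written TCACNCCAC and searched on both strands in the 250 bases before each RefSeq start (GRCh38.p14), was in the window of 1.09% of 27305 genes. It was in none of the 15 cholesterol enzymes that have an entry and in 1 of 10 regulators, which is SREBF2 itself, the gene of SREBP2, with a log2 fold change of 0.17. No match says only that these letters are not in this window. The SREBF2 window is shown because it is the list's match, with the element in capitals (chr22:41832855-41833104, plus strand).
SREBF2: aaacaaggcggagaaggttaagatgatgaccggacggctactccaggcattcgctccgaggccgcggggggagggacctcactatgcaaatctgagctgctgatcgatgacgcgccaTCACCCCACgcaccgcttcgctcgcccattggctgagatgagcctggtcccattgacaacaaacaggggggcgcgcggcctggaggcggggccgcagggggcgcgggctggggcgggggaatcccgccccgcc

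**Figure D3:**
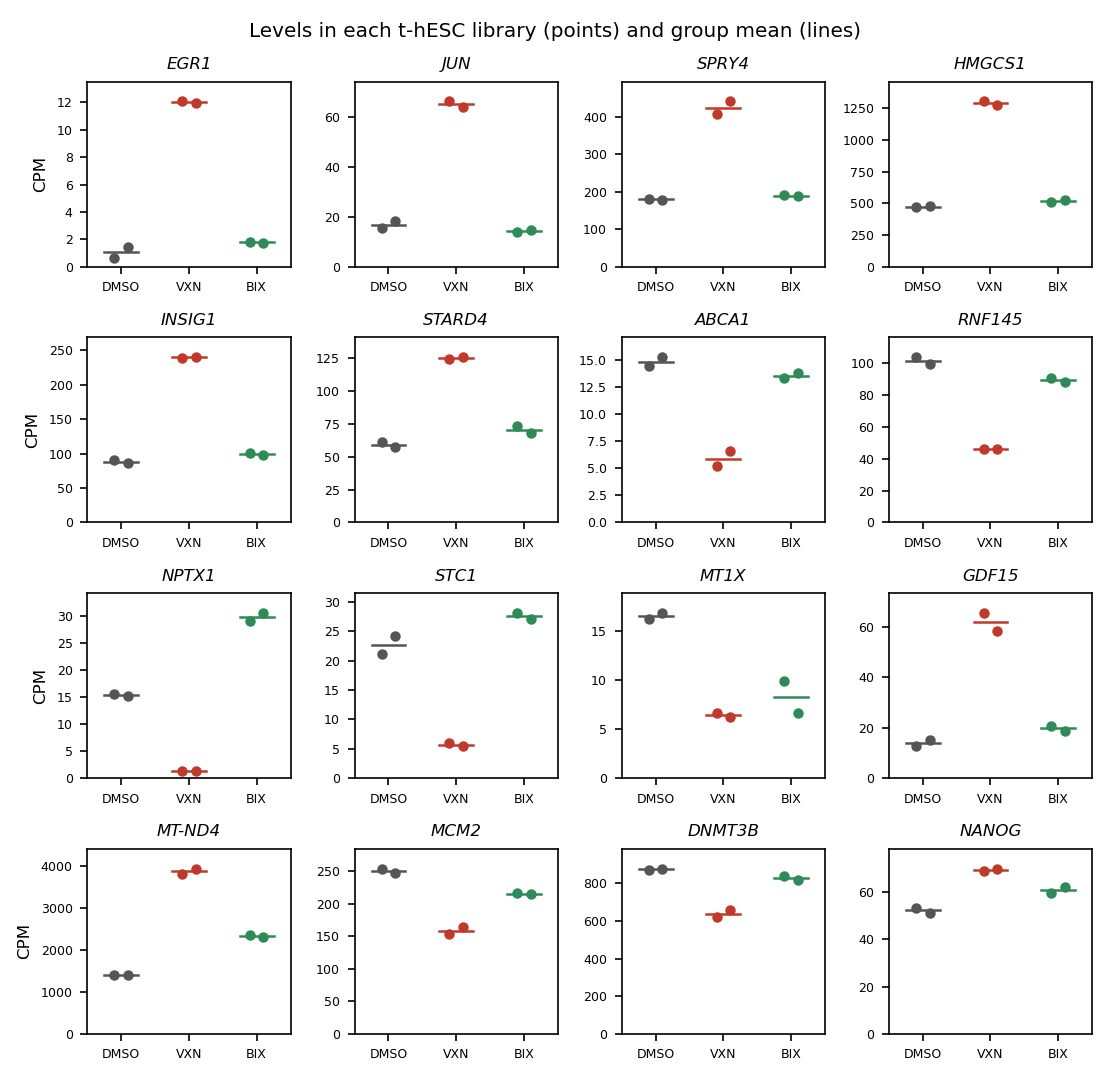
Level in CPM on a linear axis from 0 in each t-hESC library (points, 2 per group) with the group mean (line), for 16 genes that the text describes, under DMSO, VXN and BIX. In each of them both VXN points lie on the same side of both DMSO points, and NPTX1 lies below DMSO under VXN and above it under BIX.

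Immediate early genes, which respond to growth factor and stress signals without new protein synthesis, rose under VXN in 21 of 26 cases, fell in 2 and were not called in 3. EGR1, a zinc finger factor (chr5:138465479-138469303, GRCh38), was at 0.659 and 1.46 CPM under DMSO and 12.1 and 11.96 CPM under VXN, a log2 fold change of 3.46 ± 0.18 (SE; edgeR adjusted p = 1.82e-25). FOS went from 2.25 and 1.601 CPM to 8.01 and 10.7 CPM and JUN, its partner in AP-1, from 15.6 and 18.2 CPM to 66.3 and 64.1 CPM. The levels of EGR1 and FOS under DMSO were low, and no VXN library overlapped with a DMSO library in any of the 3. IER2 went from 134 and 139 CPM to 296 and 293 CPM and JUNB from 4.45 and 4.43 CPM to 9.09 and 11.6 CPM. ZFP36, whose product destabilizes mRNAs of immediate early genes and cytokines, rose by 1.48 and ARC, a gene best known from neurons, by 1.57 on the log2 scale. MYC fell by 0.26 and CCN2, a YAP target, by 0.50. MYC had the largest edgeR adjusted p of the genes named here, 0.00776. MYC was not called without VXN replicate 1 (edgeR adjusted p = 0.0784) or DMSO replicate 2 (edgeR adjusted p = 0.0586).

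Feedback genes of ERK signalling rose in 15 of 18 cases and 3 were not called. SPRY4, a Sprouty inhibitor of the pathway, went from 181 and 178 CPM to 408 and 441 CPM, and DUSP6, the cytoplasmic ERK phosphatase, from 366 and 375 CPM to 704 and 734 CPM. DUSP5, its nuclear counterpart, went from 21.1 and 20.02 CPM to 51.8 and 56.2 CPM, with no overlap between groups in any of the 3. SPRY2, SPRY1 and the ETS factor gene ETV5 rose by 0.90, 0.89 and 0.41 on the log2 scale. Of 17 ligands and receptors of the EGF and FGF families 5 rose and 3 fell. The ligand genes FGF19 and HBEGF rose by 1.23 and 0.87, FGF8 fell from 13 and 24 counts to 1 and 7 counts, and the receptor genes ERBB2 and FGFR2 fell by 0.35 and 0.37. FGF8 had the largest edgeR adjusted p of the genes named here, 0.00518. HBEGF was not called without VXN replicate 1 (edgeR adjusted p = 0.125). FGF8 was not called without VXN replicate 1 (edgeR adjusted p = 0.154) or DMSO replicate 2 (edgeR adjusted p = 0.126).

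The CArG box, the binding motif of serum response factor, was searched on both strands of the same windows and matched 1.44% of all genes. Among the 19 immediate early genes with an entry, 3 had a match: EGR1 and SRF with 2 each and EGR2 with 1. The 3 windows are shown with the boxes in capitals (EGR1 chr5:138465229-138465478, plus strand; EGR2 chr10:62816367-62816616, minus strand; SRF chr6:43171019-43171268, plus strand).
EGR1: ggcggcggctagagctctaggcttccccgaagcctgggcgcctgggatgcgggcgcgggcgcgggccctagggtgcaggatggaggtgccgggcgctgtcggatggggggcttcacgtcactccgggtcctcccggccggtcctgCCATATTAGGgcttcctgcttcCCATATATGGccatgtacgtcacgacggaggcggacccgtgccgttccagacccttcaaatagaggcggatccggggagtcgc
EGR2: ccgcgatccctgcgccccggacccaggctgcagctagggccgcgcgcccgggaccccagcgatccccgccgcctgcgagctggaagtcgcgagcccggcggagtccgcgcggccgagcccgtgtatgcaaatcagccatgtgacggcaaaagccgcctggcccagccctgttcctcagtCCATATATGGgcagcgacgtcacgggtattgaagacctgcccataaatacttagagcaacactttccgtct
SRF: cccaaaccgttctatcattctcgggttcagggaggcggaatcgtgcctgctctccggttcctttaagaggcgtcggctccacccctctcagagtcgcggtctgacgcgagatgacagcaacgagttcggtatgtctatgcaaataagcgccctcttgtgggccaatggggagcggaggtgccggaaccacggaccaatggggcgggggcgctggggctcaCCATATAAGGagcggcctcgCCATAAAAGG

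The mRNAs of the mitochondrial genome rose, while 20 of 32 nuclear genes of the same complexes fell. All 13 mitochondrial mRNAs rose, at a median log2 fold change of 1.19, and their share of all gene counts was 1.45% and 1.46% under DMSO and 3.10% and 3.08% under VXN. It was 1.99% and 1.97% under BIX. MT-ND4, a subunit of complex I, was at 1401 and 1396 CPM under DMSO and 3828 and 3948 CPM under VXN, a log2 fold change of 1.48 ± 0.027 (SE; edgeR adjusted p = 1.85e-49). MT-CO1, of complex IV, went from 3152 and 3196 CPM to 6281 and 6232 CPM, and MT-ATP6, of the ATP synthase, from 1243 and 1235 CPM to 3249 and 3239 CPM. Both groups were far apart in each. MT-CYB, of complex III, rose by 1.04, and MT-CO2 and MT-CO3 by 0.90 and 0.73 on the log2 scale. The ribosomal RNAs of the mitochondrion made up 0.263% and 0.274% of counts under DMSO and 0.315% and 0.274% under VXN, so their shares touched. Several of these genes have nuclear copies, and reads of the opposite strands of MT-ND5 and MT-ND6 cannot be told apart without strand.

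Of 32 nuclear genes of the respiratory chain none rose, 20 fell and 12 were not called, at a median of -0.15. With the fold threshold of 1.2, 0 of the 32 were called. ATP5F1B, the catalytic beta subunit of the ATP synthase, went from 1150 and 1161 CPM to 970.3 and 974 CPM, and UQCRC1, a core subunit of complex III, from 217 and 219 CPM to 177 and 177 CPM. NDUFS3, of complex I, fell by 0.23 on the log2 scale. Of 31 mitochondrial ribosomal protein genes 16 fell, for example MRPL11 by 0.33 and MRPL3 by 0.30, and none rose. With the same fold threshold 1 of the 31 fell. Of 29 genes of mitochondrial transcription and RNA turnover 27.6% were called, against 29.0% of all genes, and 8 fell and none rose. These included TFAM, which packages and transcribes the mitochondrial genome, from 72.9 and 68.3 CPM to 62.4 and 60.8 CPM, and LRPPRC and SLIRP, which stabilize its mRNAs, by 0.24 and 0.28 on the log2 scale. SSBP1, the single-strand binding protein of mitochondrial DNA, fell by 0.42. TFAM had the largest edgeR adjusted p of the genes named here, 0.00147. TFAM was not called without DMSO replicate 1 (edgeR adjusted p = 0.0538).

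**Figure D4:**
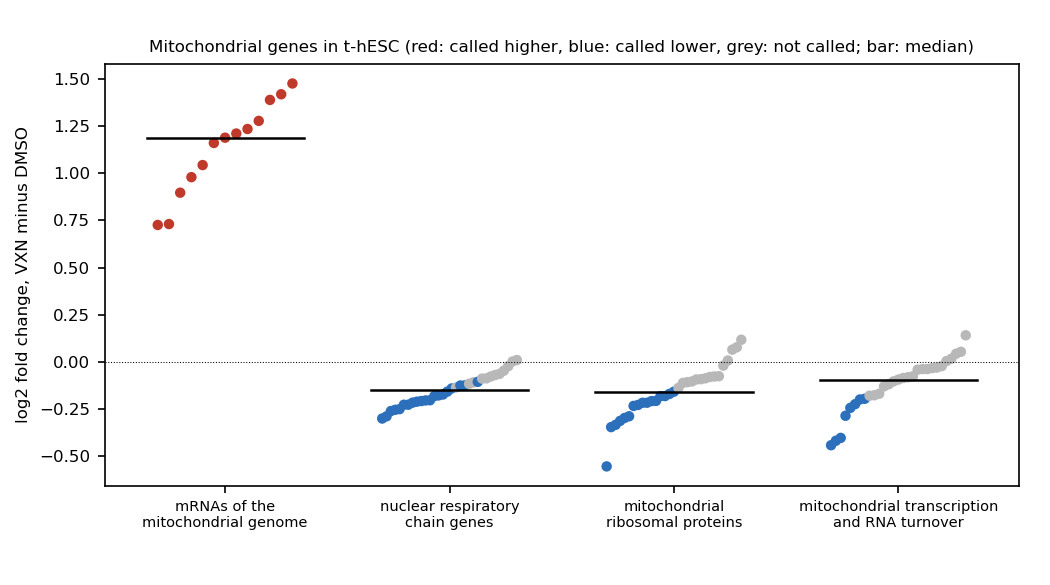
Log2 fold change of VXN over DMSO in t-hESC for the 13 mRNAs of the mitochondrial genome and for the nuclear genes of the respiratory chain, mitochondrial ribosome and mitochondrial transcription (points are genes in order of their value, red called higher, blue called lower, grey not called, bars are medians). The 13 mitochondrial mRNAs lie between 0.73 and 1.48, and none of the nuclear genes was called higher.

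Targets of p53 rose in 22 of 30 cases, fell in 1 and were not called in 7, at a median of 0.26. CDKN1A, the cyclin-dependent kinase inhibitor p21, went from 59.1 and 61.2 CPM to 119 and 120 CPM, and GDF15, a stress cytokine, from 12.6 and 14.98 CPM to 65.4 and 58.3 CPM. ZMAT3 and GADD45A rose by 0.77 and 0.93 on the log2 scale, and TNFRSF10B, a death receptor gene, by 0.67. TP53I3 fell by 0.41. Of 15 genes of the BCL2 family 6 rose and 2 fell. The number that fell was 1 without VXN replicate 1 or DMSO replicate 2 and 4 with upper-quartile factors, and the median turned from 0.17 to -0.10 without VXN replicate 2 and to -0.01 without DMSO replicate 1. The called members included the anti-apoptotic genes MCL1 and BCL2, which rose by 0.50 and 0.51, BCL2L1, which fell by 0.24, and the pro-apoptotic genes BBC3 and PMAIP1, which rose by 0.35 and 0.31. Of 19 targets of NF-kappaB 9 rose, none fell and 10 were not called. The adhesion gene ICAM1 went from 7.97 and 7.16 CPM to 24.9 and 27.9 CPM and the receptor gene TLR4 from 1.76 and 1.55 CPM to 8.55 and 8.75 CPM. TNFAIP3 and RELB rose by 1.02 and 0.92. BCL2 had the largest edgeR adjusted p of the genes named here, 0.0267. BCL2 was not called without VXN replicate 2 (edgeR adjusted p = 0.153) or DMSO replicate 2 (edgeR adjusted p = 0.416).

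Most genes of DNA replication fell. The list of G1/S and replication genes held 50 tested members, of which 43 fell, 3 rose and 4 were not called. MCM6, of the replicative helicase, went from 235 and 234 CPM to 151 and 147 CPM, and MCM2, of the same complex, from 254 and 247 CPM to 154 and 164 CPM. In these genes no VXN library reached a DMSO library. UNG, a uracil-DNA glycosylase, fell by 0.49 on the log2 scale. The members that rose were the cyclin D genes CCND1 and CCND2 and their kinase gene CDK6, by 0.14, 0.20 and 0.38. Of 32 genes of G2/M and mitosis 18 fell, 1 rose and 13 were not called. MYBL2, a transcription factor of that phase, went from 198 and 198 CPM to 121 and 129.6 CPM, and CDC20 fell by 0.31. MKI67, the gene of the proliferation marker Ki-67, was the member that rose, from 132 and 130.3 CPM to 157 and 165 CPM. Homologous recombination and Fanconi genes fell in 18 of 28 cases and none rose, for example RAD54L by 0.44 and FANCI by 0.28. CCND1 had the largest edgeR adjusted p of the genes named here, 0.00212. CCND2 was not called without VXN replicate 1 (edgeR adjusted p = 0.0596).

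The E2F site, written TTTCCCGC or TTTGGCGC and searched on both strands, was in the 250 bases upstream of 2.36% of all genes and of 15 of the 41 replication genes with an entry. Of these 15 genes 14 fell and CDT1 was not called. MCM6 holds 2 matches, and MCM3 and MCM7, which fell by 0.53 and 0.41, hold 1 each. Their windows are shown as examples of helicase genes, with the sites in capitals (MCM6 chr2:135876444-135876693, minus strand; MCM3 chr6:52284743-52284992, minus strand; MCM7 chr7:100101398-100101647, minus strand).
MCM6: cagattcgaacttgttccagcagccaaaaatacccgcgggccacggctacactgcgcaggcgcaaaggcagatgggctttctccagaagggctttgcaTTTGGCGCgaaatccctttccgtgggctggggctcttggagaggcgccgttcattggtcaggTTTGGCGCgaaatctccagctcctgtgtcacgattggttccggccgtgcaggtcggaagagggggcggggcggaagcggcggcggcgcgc
MCM3: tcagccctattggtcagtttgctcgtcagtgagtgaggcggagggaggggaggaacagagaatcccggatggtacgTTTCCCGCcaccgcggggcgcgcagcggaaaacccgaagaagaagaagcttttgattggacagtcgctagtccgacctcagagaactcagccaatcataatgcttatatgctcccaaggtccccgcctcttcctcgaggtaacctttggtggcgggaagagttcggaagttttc
MCM7: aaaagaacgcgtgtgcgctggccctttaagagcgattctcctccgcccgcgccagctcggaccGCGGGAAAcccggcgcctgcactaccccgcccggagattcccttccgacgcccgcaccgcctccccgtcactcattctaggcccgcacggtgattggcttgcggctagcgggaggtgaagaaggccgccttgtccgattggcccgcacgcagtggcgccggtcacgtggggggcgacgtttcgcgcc

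Growth genes fell as well, but genes of high level fell often in any list, as given above. Whether these lists fell more than genes of like level was not tested. Among 28 ribosome biogenesis and MYC target genes 19 fell and none rose. NOP56, of the box C/D particles, went from 287 and 284 CPM to 222 and 221 CPM and UBTF, which drives transcription of ribosomal RNA genes, from 159 and 148 CPM to 112 and 114 CPM. Of 36 cytosolic ribosomal protein genes 27 fell and none rose, RPS6 by 0.23 and RPL27 by 0.21, and pseudogenes of near-identical sequence could share reads with many of them. Of 18 aminoacyl-tRNA synthetase genes 13 fell and none rose, and with the fold threshold of 1.2 only 1 fell. TARS1 fell by 0.32 and IARS1 by 0.30 on the log2 scale. Of 14 genes of polyamine metabolism 8 fell and 2 rose. ODC1, the first enzyme of synthesis, went from 249 and 249 CPM to 164 and 160.3 CPM, while SAT1, which starts polyamine breakdown, went from 85.5 and 86.5 CPM to 178 and 175 CPM, and SMOX, an oxidase of spermine, rose by 0.52. Both members that rose act in breakdown. SMOX had the largest edgeR adjusted p of the genes named here, 1.21e-06.

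Glycolytic genes fell in 20 of 25 cases, rose in 4 and were not called in 1. LDHA, lactate dehydrogenase, went from 113 and 112 CPM to 77.9 and 79.8 CPM, and PGK1, phosphoglycerate kinase, from 731 and 734 CPM to 559 and 562 CPM. HK2 fell by 0.46, and PGAM1, ENO1 and PKM, each with pseudogenes of close sequence, by 0.46, 0.39 and 0.35 on the log2 scale. The glucose transporter gene SLC2A3 went from 775 and 769.6 CPM to 1042 and 1075 CPM and was a member that rose, as did PFKFB2, ALDOC and ENO2, by 0.37, 0.26 and 0.13. Without VXN replicate 2, 2 glycolytic genes rose. Of 24 genes of the hypoxia response 4 rose, 7 fell and 13 were not called, and without either VXN replicate 4 fell. STC1, a secreted glycoprotein gene, went from 21.2 and 24.3 CPM to 5.98 and 5.42 CPM, and BNIP3, of mitophagy, fell by 0.43. EPAS1, which encodes the hypoxia factor HIF-2 alpha, rose by 1.19 and VEGFA by 0.24. ENO2 had the largest edgeR adjusted p of the genes named here, 0.00313. PFKFB2 was not called without VXN replicate 2 (edgeR adjusted p = 0.0924). ENO2 was not called without VXN replicate 2 (edgeR adjusted p = 0.0557) or DMSO replicate 1 (edgeR adjusted p = 0.0918). VEGFA was not called without VXN replicate 2 (edgeR adjusted p = 0.222) or DMSO replicate 2 (edgeR adjusted p = 0.0504).

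Of 16 metallothionein and zinc transporter genes 6 fell, 2 rose and 8 were not called. Metallothioneins bind zinc and copper. MT1X went from 16.2 and 16.8 CPM to 6.58 and 6.26 CPM, MT1F from 8.24 and 7.87 CPM to 3.47 and 2.14 CPM and MT2A from 13.7 and 15.3 CPM to 8.19 and 7.84 CPM. DMSO libraries stood above VXN libraries in all 3, which the rule for the largest changes required. MT1E and MT1G, at lower levels, fell by 2.04 and 2.06 on the log2 scale. MT1H fell from 19 and 19 counts to 2 and 6 counts. These genes are close copies of each other, so how reads were shared among them is uncertain. The zinc transporter genes SLC39A7 and SLC30A5, which empty and load compartments of the secretory pathway, rose by 0.21 and 0.23. MT1H had the largest edgeR adjusted p of the genes named here, 0.00255. MT1H was not called without VXN replicate 1 (edgeR adjusted p = 0.0897). SLC30A5 was not called without VXN replicate 1 (edgeR adjusted p = 0.168).

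The core of the metal response element, TGCACNC or TGCGCNC on either strand, was in the window of 28.5% of all genes at least once and of 1.94% at least 3 times. Of 11 genes of the list with an entry 6 had it, and MT2A with 7, MT1X with 4 and MT1H with 8 had it at least 3 times. Their windows are shown with the cores in capitals (MT2A chr16:56608334-56608583, plus strand; MT1X chr16:56682220-56682469, plus strand; MT1H chr16:56669564-56669813, plus strand).
MT2A: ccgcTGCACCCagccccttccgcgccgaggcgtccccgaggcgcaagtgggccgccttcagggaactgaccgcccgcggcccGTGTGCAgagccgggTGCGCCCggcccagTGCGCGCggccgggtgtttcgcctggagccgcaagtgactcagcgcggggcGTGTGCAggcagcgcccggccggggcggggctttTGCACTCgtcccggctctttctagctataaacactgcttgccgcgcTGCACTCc
MT1X: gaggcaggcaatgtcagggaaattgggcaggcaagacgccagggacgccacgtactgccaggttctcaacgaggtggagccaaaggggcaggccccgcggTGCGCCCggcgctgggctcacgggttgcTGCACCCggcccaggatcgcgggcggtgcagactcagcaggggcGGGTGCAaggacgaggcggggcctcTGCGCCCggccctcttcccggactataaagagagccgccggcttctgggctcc
MT1H: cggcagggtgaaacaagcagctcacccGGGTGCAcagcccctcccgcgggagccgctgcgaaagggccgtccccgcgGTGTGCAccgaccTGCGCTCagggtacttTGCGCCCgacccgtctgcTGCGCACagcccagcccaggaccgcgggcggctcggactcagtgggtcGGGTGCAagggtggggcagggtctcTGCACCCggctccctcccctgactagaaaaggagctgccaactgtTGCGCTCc

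Other stress pathways went both ways. Of 25 NRF2 targets 6 rose and 6 fell. The cystine transporter gene SLC7A11 rose by 0.41 and the autophagy receptor gene SQSTM1 by 0.45, and TALDO1 and PGD, of the pentose phosphate pathway, fell by 0.25 and 0.17. Without DMSO replicate 2, or with the replicate number as a block, 3 NRF2 targets fell. Of 20 cytosolic chaperones 9 fell and 5 rose. HSP90AA1, the inducible form of HSP90 with close pseudogene copies, went from 2007 and 2010 CPM to 1400 and 1326 CPM, and HSPD1 and HSPH1 fell by 0.29 and 0.31. The near-identical HSPA1A and HSPA1B rose by 0.89 and 0.46. Without VXN replicate 1 the higher calls among chaperones dropped from 5 to 1, and without DMSO replicate 1 to 2. Of 21 genes of the unfolded protein response of the endoplasmic reticulum 9 rose and 6 fell. The sensor gene ERN1 and the quality control gene EDEM1 rose by 0.58 and 0.57, whereas HSPA5, the gene of the chaperone BiP, fell by 0.19 and CALR by 0.34. Of 28 genes of the amino acid response 16 rose and 3 fell. TRIB3 went from 24.9 and 22.8 CPM to 38.9 and 34.99 CPM and ASNS, asparagine synthetase, from 113 and 117 CPM to 152 and 141 CPM, while ALDH18A1 and DDIT4 fell by 0.32 and 0.27. HSPA1A had the largest edgeR adjusted p of the genes named here, 0.00175. HSPA1A was not called without VXN replicate 1 (edgeR adjusted p = 0.0544).

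The genes of the G9a and GLP enzymes fell slightly. EHMT1, the gene of GLP, was at 147 and 141 CPM under DMSO and 117 and 119 CPM under VXN, and EHMT2, the gene of G9a, at 207 and 204 CPM and 172 and 178 CPM. Neither overlapped between groups, and the log2 fold changes were -0.29 ± 0.04 and -0.23 ± 0.037 (SE). Of 13 H3K9 methyltransferases and partners 6 fell and 1 rose. WIZ, a zinc finger partner of G9a and GLP, and TRIM28, the corepressor of zinc finger repressors, fell by 0.16 and 0.19. PRDM2 was the member that rose, by 0.18. Without DMSO replicate 2, or with DESeq2, 3 fell. Among 13 H3K9 demethylases 2 rose and 2 fell, 30.8% called against 29.0% of all genes, and 1 fell without VXN replicate 1 and 4 without VXN replicate 2. KDM1A, the lysine demethylase LSD1, fell by 0.31, and PHF8 rose by 0.24. Of 19 genes of HP1 and DNA methylation 7 fell and 3 rose, and 4 fell without DMSO replicate 1. The maintenance factor gene UHRF1 went from 74.1 and 73.6 CPM to 46.2 and 45.8 CPM and the methyltransferase gene DNMT3B from 869 and 877 CPM to 619.7 and 657 CPM. The demethylation gene TET3 rose by 0.40. Of 29 Polycomb genes 11 rose and 5 fell, with 6 or 7 rising without DMSO replicate 1 or 2 or VXN replicate 2, and 6 with DESeq2. EZH2, the catalytic subunit of dividing cells, fell from 74.96 and 73.1 CPM to 51.8 and 52.7 CPM, and its paralogue EZH1 rose by 0.37. Of 19 histone genes 5 fell and 2 rose, with 3 falling without VXN replicate 2 or DMSO replicate 1. None rose without VXN replicate 2 or DMSO replicate 2, and 1 rose without either of the others. MACROH2A1 fell by 0.38. PRDM2 had the largest edgeR adjusted p of the genes named here, 0.0268. WIZ was not called without VXN replicate 1 (edgeR adjusted p = 0.0772) or DMSO replicate 2 (edgeR adjusted p = 0.125). PRDM2 was not called without VXN replicate 1 (edgeR adjusted p = 0.212) or DMSO replicate 1 (edgeR adjusted p = 0.396).

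Pluripotency genes changed in both directions. Of 27 core genes 13 fell, 3 rose and 11 were not called. POU5F1, with close pseudogenes, was at 1702 and 1673 CPM and 1554 and 1534 CPM, and SOX2 at 282 and 269.7 CPM and 214 and 228 CPM. NANOG, which also has close pseudogenes, was at 53.2 and 51.1 CPM and 68.8 and 69.8 CPM. Both VXN libraries lay below DMSO for POU5F1 and SOX2 and above it for NANOG. TDGF1, the Nodal co-receptor, fell by 0.66, and its pseudogene TDGF1P3, which could share its reads, by 0.92 on the log2 scale. TERF1, a telomere binding protein gene, fell by 0.47, and UTF1 rose by 0.43. Of 11 genes of the naive state 3 rose and none fell, so that 27.3% were called against 29.0% of all genes. KLF5 went from 0.5496 and 0.895 CPM to 1.55 and 1.47 CPM, KLF2 from 0.165 and 0.235 CPM to 0.658 and 0.959 CPM, and ESRRB rose by 0.52. KLF5 had the largest edgeR adjusted p of the genes named here, 0.0125. KLF5 was not called without VXN replicate 1 (edgeR adjusted p = 0.0628) or DMSO replicate 1 (edgeR adjusted p = 0.161). KLF2 was not called without VXN replicate 2 (edgeR adjusted p = 0.105) or DMSO replicate 1 (edgeR adjusted p = 0.0555). ESRRB was not called without VXN replicate 1 (edgeR adjusted p = 0.0769) or DMSO replicate 2 (edgeR adjusted p = 0.057).

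Lineage genes went both ways. Of 19 genes of ectoderm and neural fate 6 fell and 5 rose, and 3 rose without VXN replicate 1. NPTX1, a neuronal pentraxin gene that pluripotent cells raise on the way to neural fate (chr17:80466834-80476607, GRCh38), was at 15.6 and 15.1 CPM under DMSO and 1.38 and 1.41 CPM under VXN, a log2 fold change of -3.45 ± 0.16 (SE; edgeR adjusted p = 3.37e-27). TUBB3 went from 82.7 and 83.8 CPM to 64.4 and 66.3 CPM and DCX, a microtubule gene of young neurons, from 5.28 and 4.38 CPM to 2.21 and 2.03 CPM, while SIX3 and LHX5 rose by 0.49 and 0.80. Of 15 endoderm genes 3 rose and 1 fell, so that 26.7% were called against 29.0% of all genes. SOX9, also a gene of cartilage and neural crest, went from 14.6 and 15.1 CPM to 37.01 and 36.6 CPM, CXCR4 from 1.92 and 1.98 CPM to 3.11 and 3.27 CPM, and KIT fell by 0.37. Of 10 genes of mesoderm 4 rose, among them KDR, a receptor of VEGF, by 0.65. The summed mesoderm markers were 5.33 and 3.91 CPM under DMSO and 5.86 and 6.21 CPM under VXN. CXCR4 had the largest edgeR adjusted p of the genes named here, 0.00505. CXCR4 was not called without VXN replicate 2 (edgeR adjusted p = 0.0531).

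Developmental signalling lists held genes that rose and genes that fell. Of 27 genes of Nodal and TGF-beta signalling 11 rose and 2 fell. SMAD7, an inhibitory SMAD, went from 25.9 and 28.6 CPM to 46.6 and 48.8 CPM, and FSTL3, an activin antagonist gene, rose by 0.51 on the log2 scale. Of 20 genes of the BMP pathway 8 rose and 1 fell, with 5 rising without DMSO replicate 2. SMAD6, the inhibitory SMAD of that branch, went from 4.78 and 5.46 CPM to 9.21 and 10.2 CPM, BMP4 from 1.54 and 1.74 CPM to 3.71 and 3.22 CPM, and BAMBI, a decoy receptor gene, rose by 0.54. BMP2 fell by 0.81. Of 33 WNT pathway genes 10 rose and 3 fell. The ligand gene WNT5A rose by 1.31 and the receptor gene FZD5 by 0.55, and the repressor gene TCF7L1 fell by 0.47. Of 16 genes of retinoic acid 6 fell and 5 rose. DHRS3 and CYP26A1, both raised by retinoic acid, fell by 0.89 and 0.79, and LRAT, a retinol esterifying enzyme, rose by 1.44. BMP2 had the largest edgeR adjusted p of the genes named here, 0.00396. BMP2 was not called without DMSO replicate 2 (edgeR adjusted p = 0.138).

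Of 34 interferon-stimulated genes 8 rose, 2 fell and 24 were not called, so that 29.4% were called against 29.0% of all genes. Without DMSO replicate 1, 4 rose and 1 fell. IRF9 went from 2.86 and 3.06 CPM to 6.04 and 5.305 CPM and IFITM1 from 76.2 and 74.1 CPM to 94.7 and 92.2 CPM, and IFITM2 fell by 0.24. Of 14 sensors of nucleic acid none rose and 2 fell, ADAR by 0.12 and SAMHD1 by 0.23, so that 14.3% were called. Of 19 genes of HLA class I presentation 6 rose and 4 fell, with 2 falling without DMSO replicate 2. HLA-E went from 74.1 and 79.6 CPM to 98.2 and 103 CPM, TAPBP rose by 0.54 and the immunoproteasome gene PSMB10 fell by 0.34. Of 28 lysosome and autophagy genes 9 rose and 8 fell, with 5 falling without VXN replicate 1 or DMSO replicate 2. NEU1, a lysosomal sialidase, went from 52.5 and 57.1 CPM to 98.2 and 98.1 CPM, and CTSZ and LAMP1 fell by 0.31 and 0.23. Of 12 iron genes 33.3% were called, against 29.0% of all genes, and 4 rose and none fell. Those that rose included the transferrin receptor gene TFRC, from 136 and 139 CPM to 204 and 199 CPM. Both ferritin genes, FTH1 and FTL, rose by 0.30 and 0.31. The ferritin genes have many pseudogene copies. PSMB10 had the largest edgeR adjusted p of the genes named here, 0.0175. SAMHD1 was not called without VXN replicate 1 (edgeR adjusted p = 0.14) or DMSO replicate 1 (edgeR adjusted p = 0.0826). PSMB10 was not called without VXN replicate 2 (edgeR adjusted p = 0.346) or DMSO replicate 2 (edgeR adjusted p = 0.169).

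Of 29 collagen and matrix genes 13 rose, 5 fell and 11 were not called. HSPG2, the gene of the basement membrane proteoglycan perlecan, went from 49.95 and 50.9 CPM to 79.6 and 87.5 CPM and LAMA5, a laminin chain gene, from 63.8 and 65.5 CPM to 85.8 and 96.9 CPM, while COL18A1 fell by 0.34 and COL5A2 by 0.40. COL1A1 and COL1A2, of the fibroblast markers, were at 33.2 and 41.3 CPM on average under DMSO and at 37.6 and 39.1 CPM under VXN, and neither was called. The summed fibroblast markers were higher under VXN, as given above, and their part in the result was not tested. THY1, a glycoprotein of the surface of pluripotent cells and fibroblasts, went from 586 and 589 CPM to 858 and 856 CPM. Of 18 surface and aldehyde dehydrogenase markers of stem cells 7 fell and 2 rose, or 1 without VXN replicate 2. CD24 fell by 0.15 and ALDH7A1 by 0.29. Of 25 junction and adhesion genes 5 rose and 4 fell, and 7 fell with upper-quartile factors. The integrin genes ITGA3 and ITGA5 rose by 0.44 and 0.35, and GJA1, the gap junction gene of pluripotent cells, fell by 0.28. CD24 had the largest edgeR adjusted p of the genes named here, 1.57e-05.

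Among 21 imprinted genes 7 rose and 4 fell. The growth inhibitor gene CDKN1C went from 37.2 and 37.1 CPM to 57.5 and 57.1 CPM, its neighbour PHLDA2 rose by 1.19 and SNURF fell by 0.37. SNURF and SNRPN overlap, so their reads could be shared. Of 13 abundant long non-coding RNAs of stem cells 4 rose and 4 fell. MALAT1, which stays in the nucleus, went from 26.8 and 23.5 CPM to 54.6 and 52.9 CPM, XACT, which coats the X chromosome in pluripotent cells, rose by 0.54, and ESRG fell by 0.37. Of 20 host genes of snoRNAs and miRNAs 5 rose and 2 fell, so that 35% were called against 29.0% of all genes. MIR302CHG, the host of the miR-302 cluster, fell by 0.41, and SNHG3 rose by 0.64. Without VXN replicate 1 or 2 or DMSO replicate 2 the count of host genes that rose was 2, 8 and 3. Of 8 germline genes 1 fell, TEX15, by 0.54, so that 12.5% were called. TEX15 had the largest edgeR adjusted p of the genes named here, 0.00335.

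The genes of largest change outside the lists were taken by rule, as the 20 highest and 20 lowest with a mean of at least 4 CPM. AMER2, a regulator of WNT signalling, went from 1.37 and 1.41 CPM to 7.71 and 6.77 CPM, IL21R, a cytokine receptor gene, from 4.18 and 4.05 CPM to 11.6 and 13.8 CPM, and PLA2G2A, a secreted phospholipase gene, from 4.396 and 3.81 CPM to 12.3 and 10.1 CPM. GPR20 and TMEFF2 rose by 1.76 and 1.58. On the lower side FERMT1, the kindlin gene of epithelia, went from 16.4 and 15.4 CPM to 6.28 and 7.05 CPM, and DHRS2 from 8.52 and 8.29 CPM to 3.11 and 4.68 CPM. HTR3A, a serotonin receptor gene, fell by 0.89, ST14, the gene of matriptase, by 0.84, and HNRNPM, a splicing factor gene, by 0.88, from 396 and 405 CPM to 218 and 217 CPM. In CPM, the largest falls were those of abundant genes, led by ACTB from 5309 and 5377 CPM to 4567 and 4555 CPM and GAPDH from 4143 and 4282 CPM to 3468 and 3453 CPM. TUBA1B fell by 0.40 and TUBA1B-AS1, its neighbour in RefSeq, by 0.36, and whether they share reads was not tested. HTR3A had the largest edgeR adjusted p of the genes named here, 8.19e-05.

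A small number of genes went from near no counts to some, or the reverse. With at most 3 counts in both libraries of one group and at least 10 in both of the other, 4 genes appeared under VXN and 5 disappeared. The homeobox gene MSX2, a BMP target, had 2 and 2 counts under DMSO and 15 and 13 under VXN, and the forkhead gene FOXI2 had 1 and 3 and 15 and 14. CUZD1 had 15 and 19 counts under DMSO and 1 and 3 under VXN. These are low counts, and no fold is given.

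The next comparison asked where the VXN effect in t-hESC differed from that in HT29 at the same dose and time, by a test of the difference of the 2 effects, which share no library. The difference was called for 43.2% of genes, with 20.3% higher in t-hESC than in HT29 and 22.9% lower. Among the cholesterol enzymes the effect was higher in t-hESC in 20 of 20. The median of these enzymes was 0.88 in t-hESC and -0.06 in HT29. HMGCS1 changed by 1.44 in t-hESC and by 0.36 in HT29 on the log2 scale, a difference of 1.08 ± 0.046 (SE). Among the 12 regulators and genes of sterol uptake the effect was higher in t-hESC in 4 and lower in 5. INSIG1, of that list, changed by 1.44 and 0.87. The effect on mitochondrial mRNAs was higher in t-hESC in 12 of 13. In HT29 these mRNAs went both ways, at a median of -0.39. There MT-ND4 went from 3133 and 3089 CPM to 1759 and 1763 CPM, and MT-ND2 from 949 and 930 CPM to 1849 and 1875 CPM. Of the G1/S genes 47 of 50 had a difference above 0, because the fall was smaller in t-hESC. Their median was -0.34 in t-hESC and -2.04 in HT29, and MCM2 changed by -0.66 and -2.48. All 32 G2/M genes were also called higher for the difference, again with the smaller fall in t-hESC, and PLK1 changed by -0.33 and -2.18. The median of the G2/M genes was -0.15 in t-hESC and -2.23 in HT29. The share of all genes called in HT29 itself was not counted, so no list counts are given for it. CCND2 had values of 0.20 in t-hESC and 3.05 in HT29, where it was not called.

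Other lists had a lower effect in t-hESC. This held for 33 of 34 interferon-stimulated genes and for all 21 genes of the unfolded protein response of the endoplasmic reticulum. The median of the interferon-stimulated genes was 0.20 in t-hESC and 3.81 in HT29. IRF9 changed by 0.93 and 3.21 in t-hESC and HT29, and HSPA5 by -0.19 and 2.19. NRF2 targets were lower in 22 of 25, ribosomal protein genes in 33 of 36 and matrix genes in 22 of 29. Of nuclear respiratory chain genes 25 of 32 had a difference above 0, because the fall was smaller in t-hESC. Their median was -0.15 in t-hESC and -0.45 in HT29. FOS went in opposite directions, with 2.30 in t-hESC and -0.68 in HT29, a difference of 2.99 ± 0.18 (SE; edgeR adjusted p = 1.32e-22).

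**Figure D5:**
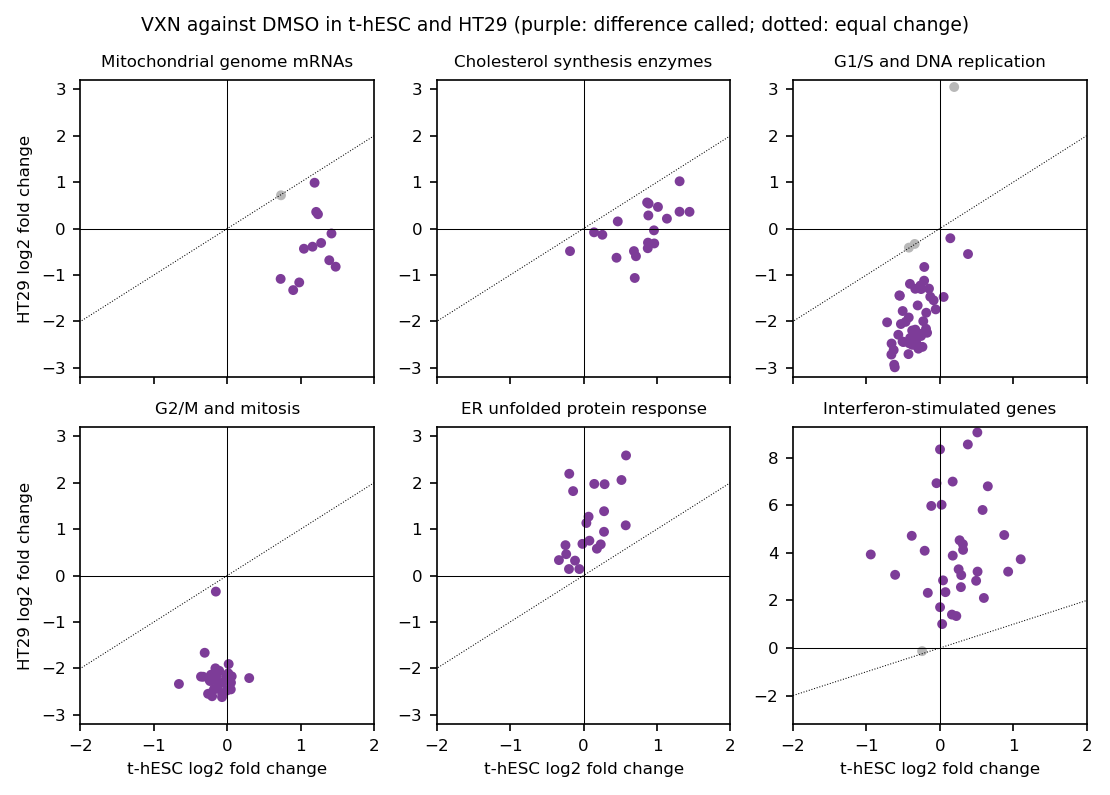
Log2 fold change of VXN over DMSO in t-hESC (horizontal axis) against that in HT29 (vertical axis) for 6 gene lists, 1 point per gene, purple where the difference was called, with a dotted line of equal change and a wider HT29 axis for the interferon-stimulated genes. All cholesterol enzymes but PMVK lie to the right of 0 and all 20 lie below the dotted line, and 33 interferon-stimulated genes lie above it.

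The last comparison set VXN at 10 µM beside BIX at 1 µM in t-hESC. The doses differ, so compound and dose cannot be told apart, and both effects use the same DMSO libraries. The test between VXN and BIX called 22.7% of genes, 11.6% higher under VXN and 11.2% lower. Immediate early genes were higher under VXN in 20 of 26 and lower in 1. EGR1 was at 1.83 and 1.76 CPM under BIX and 12.1 and 11.96 CPM under VXN, and JUN at 13.8 and 14.6 CPM and 66.3 and 64.1 CPM. DUSP5 was higher under VXN by 1.74 ± 0.074 on the log2 scale (SE). Of the cholesterol enzymes 18 of 20 and of the mitochondrial mRNAs 13 of 13 were higher under VXN, and MT-ND4 was at 2367 and 2303 CPM under BIX. Glycolysis genes were lower under VXN in 19 of 25, LDHA at 102 and 106 CPM under BIX, and G1/S genes in 20 of 50 with 4 higher. Against DMSO, the median log2 fold change under BIX was -0.26 for the G1/S genes and -0.18 for the ribosomal protein genes. For the mitochondrial mRNAs it was 0.42. MT1F, MT1X and MT2A changed by -1.09, -0.99 and -0.87 under BIX. The median under BIX was 0.03 for the cholesterol enzymes and -0.03 for the immediate early genes. The share of all genes called for BIX against DMSO was not counted, so no list counts are given for it.

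Matrix genes were lower under VXN than under BIX in 17 of 29. HSPG2 was at 121 and 111 CPM under BIX and 79.6 and 87.5 CPM under VXN. NPTX1 was at 28.9 and 30.5 CPM under BIX and 1.38 and 1.41 CPM under VXN, above and below its DMSO level, a difference of -4.41 ± 0.15 (SE; edgeR adjusted p = 7.1e-35). STC1 was at 28.1 and 27.1 CPM under BIX. TDGF1 had log2 fold changes against DMSO of -0.05 under BIX and -0.66 under VXN, SOX2 of 0.15 and -0.32, and EHMT1 of -0.04 and -0.29.

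The authors' deposited table for VXN against DMSO in t-hESC called 1210 genes, 615 higher and 595 lower, and 1208 of these were called here in the same direction.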

How the data were processed

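RNA-seq libraries of 4 samples were compared, 2 t-hESC libraries under VXN and 2 under DMSO, with 6 further libraries in the fit. The deposited count table holds raw counts, whole numbers per gene, for 60651 genes and 1181 repeat families. Tools listed per the submitters' processing notes are STAR, DESeq2 1.34.0, FastQC 0.11.9 and fastp 0.20.1, with hg38 and GRCh38 as builds. The counter and annotation were not given in the sources used here, and the handling of reads that fit several similar or overlapping genes is therefore unknown. Libraries were made with a TruSeq RNA kit per the labels' protocols, which does not mark strand. Of the count columns, 4 match no sample and were not used. A deposited table by the authors gives log2 fold changes and adjusted p-values, which were used for counts of calls only.

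Gene counts per library were 16295315 to 21128261 in the 4 libraries. Counts were fitted with edgeR 4.0.16 (R 4.3.3) over all 10 libraries: TMM, filterByExpr with a minimum count of 10, the robust quasi-likelihood F test and Benjamini-Hochberg adjustment over 22495 genes, called under 0.05. There were 5 residual and 56.7 prior degrees of freedom. CPM use TMM-scaled library sizes. Symbols matched 42133 gene rows. On simulated counts of 22099 genes with 200 changed, 48, 94, 100 and 100% of changes of 1.2, 1.5, 2 and 4-fold were recovered, with 2.84% of calls false. The changed genes had at least 4 CPM and the counts were drawn with the fit's own spread. The simulation therefore cannot judge the calls in the data, where far more genes were called.

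The 54 gene lists and the members were chosen with earlier results of these data known, and lists were read by counts and medians only. Named genes are the 20 highest and lowest called changes at a mean of at least 4 CPM, the 10 largest rises and falls in CPM, genes with at most 3 counts in one group and at least 10 in the other, up to 8 members per list by smallest p with members called against the list's direction, the 6 highest and lowest for the difference between lines and for VXN against BIX, and EHMT1, EHMT2, POU5F1, NANOG and SOX2. Only part of them is printed, and a few named by it are not reported here. Promoter windows of 250 bases came from RefSeq (GRCh38.p14). Replicate numbers were checked for pairing: deviations of same-numbered libraries correlated from -0.081 to 0.033, so no block was used. Alternatives were a fold threshold of 1.2 (glmTreat), RLE or upper-quartile factors, a fit with the replicate number as block, DESeq2 1.42.0, a fit of the 2 groups alone, a minimum count of 50 or none, and each library left out.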

Additional observations from a re-analysis of the deposited data

Results flagged for a closer look

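The VXN effect differed between t-hESC and HT29 for 9722 genes by edgeR's test of the difference, which flagged the following genes. All values are differences of log2 fold changes, t-hESC minus HT29, with their SE. The highest were APLN (5.38 ± 1.3), CD200 (4.89 ± 0.2), RNASE1 (4.83 ± 0.84), METTL7A (4.54 ± 0.28), TRPV4 (4.51 ± 0.87) and BCL2 (3.97 ± 0.65). CD200, an immune checkpoint ligand, went from 64.7 and 67.1 to 88.3 and 84.9 CPM in t-hESC and from 10.6 and 10.97 to 0.437 and 0.507 CPM in HT29. The lowest were NPTX1 (-8.36 ± 1.3), TIMP3 (-6.33 ± 1.1), CLGN (-6.05 ± 0.16), ANTXR1 (-5.77 ± 1.3), PCDH18 (-5.61 ± 1.3) and HSD17B14 (-5.49 ± 1.2). CLGN, a chaperone gene, went from 23.4 and 22.6 to 18.9 and 18.96 CPM in t-hESC and from 0.783 and 0.982 to 48.1 and 48.4 CPM in HT29. NPTX1 was at 0 and 0 CPM in HT29 under DMSO and at 0.262 and 0.101 CPM under VXN. Where an HT29 level is at or near 0, the fitted difference depends on the prior count and is no bound.

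Among genes of the lists the difference was 2.30 ± 0.038 for MT-ND4, 2.22 ± 0.039 for MT-CO2, 1.18 ± 0.046 for FDFT1, 1.76 ± 0.061 for ACAT2, 2.99 ± 0.18 for FOS, 3.95 ± 0.23 for TLR4 and 1.52 ± 0.083 for SPRY2. It was 1.82 ± 0.055 for MCM2, 1.85 ± 0.059 for PLK1 and 1.82 ± 0.063 for BUB1. It was -2.61 ± 0.062 for RNF145, -1.67 ± 0.057 for LPCAT1 and -2.39 ± 0.041 for HSPA5.

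Rows of repeat families were not part of the comparisons. They held 4.146% and 4.158% of all counts in the VXN libraries of t-hESC, above the 3.541% and 3.518% of the DMSO libraries. Under BIX the shares were 4.2% and 4.32%. Whether reads within genes were also counted in these rows was not tested.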

How the results depend on the processing

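In each of the 3 comparisons, no gene called in edgeR had a call in the opposite direction under any alternative run. For VXN against DMSO, DESeq2 called 3574 genes (1652 higher, 1922 lower), and 3568 of them had the same call in edgeR. The fold threshold of 1.2 called 1411, with 968 higher and 443 lower. Leaving out each of the 4 libraries in turn gave 4856 to 5602 genes, 2287 to 2787 higher and 2560 to 2815 lower. The other alternatives gave 5897 to 6662 genes, and upper-quartile factors moved the share of higher calls from 49.8 to 43.7%. With the replicate number as a block, which the pairing check did not bear out, 6442 genes were called. For the difference between the lines the block gave 9659 and leaving out a library 8723 to 9117. For VXN against BIX, DESeq2 called 2557 genes and the fold threshold 931, the block 5003, and leaving out a library gave 3651 to 4398. Of 232 genes named with a value, 139 were called under every alternative that gave a value for them. The fold threshold lost 86 and DESeq2 12. Of 108 counts of list members called higher or lower, DESeq2 moved 25 and the fold threshold 82 by over 1.5 times, and leaving out a library moved 11 to 14. Groups of 2 libraries allow no test for outlying samples, and a library left alone in its group is assumed to vary like the other groups.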

Other observations

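Among classes of genes outside the lists, unprocessed pseudogenes were called higher in 11 and lower in 1 of 138 cases, and transcribed unprocessed pseudogenes higher in 25 and lower in 5 of 334 (edgeR, adjusted p under 0.05 over all genes). Those are 8.70% and 8.98% called, against 29.0% of all genes. Of 101 snoRNA genes 5 were higher and none lower, or 4.95% called. Genes of any class with a mean between 1 and 4 CPM also had more higher calls, 391 against 128 lower, and no difference between classes was tested. Pseudogene reads can be shared with their parent genes, and the part of that in these counts was not tested.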
